A study of Homo sapiens with 36 samples.

Results

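Transcripts of 7 human aquaporin genes were examined: AQP1, AQP3, AQP5, AQP7, AQP8, AQP10 and AQP11. They were taken by symbol from an mRNA count table of 60591 genes. All 7 were found, out of 14 human aquaporin genes in the table. The family was chosen by the fold change of AQP10, which led the genes that were higher with the oxyquinoline derivative in Caco-2, so values in that comparison are given as a description and carry no p. The libraries came from Caco-2 and HT-29, lines established from human colorectal cancers. Caco-2 had been held under differentiating conditions for 21 days (dCaco-2), whereas no differentiation was described for HT-29. Cell line and culture state therefore cannot be told apart. Cells of each line received 300 µM CoCl2, 5 µM of the oxyquinoline derivative 4896-3212 (OD), or 0.5 µl of dimethyl sulfoxide (DMSO) per ml of medium as control, for 24 h, with 3 replicates per group. The control label itself reads as untreated. OD was carried in DMSO, and CoCl2 was dissolved in water. By the labels the CoCl2 medium held no DMSO, whereas the study's methods give DMSO to that medium too, so whether the solvent was matched cannot be told. Both agents block prolyl hydroxylases, the enzymes that target hypoxia-inducible factor (HIF) for degradation. The question was how the aquaporin genes of each line respond to them.

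Aquaporins are membrane channels that let water cross cell membranes along osmotic gradients. The water-selective members include AQP1, AQP5 and AQP8. The aquaglyceroporins AQP3, AQP7 and AQP10 also conduct glycerol, and AQP11 is an unorthodox member that sits largely in intracellular membranes. In the gut, AQP3 lies in the basolateral membrane of colon epithelium, AQP8 in colonic surface cells and AQP10 in small intestinal epithelium. AQP7 is best known as the channel by which fat cells release glycerol.

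The mRNA libraries held from 12925719 to 22332639 counts. Levels are CPM (counts scaled to a common library size) with TMM factors (trimmed mean of M values) computed in each line. Fold changes are log2 values from edgeR with a standard error (SE). A call required a false discovery rate (FDR) under 0.05 over all genes tested, together with a log2 fold change above 1 or below -1. Scaling by total counts alone shifted the median over all genes by -0.32 for CoCl2 and -0.15 for OD in dCaco-2, and by -0.63 and -0.14 in HT-29, on the log2 scale. The 4 epithelial markers (EPCAM, KRT20, CDH1, VIL1) were detected in every group. The summed CPM of 7 enterocyte markers was 1109 to 1222 in the dCaco-2 controls, against 161 to 167 in the HT-29 controls. The 4 immune markers summed to at most 1.08 CPM in a library. Other markers were not all near 0. In dCaco-2 controls the 4 fibroblast markers summed to 32.7 to 34.7 CPM, with COL1A1 at 25.1 and PDGFRA at 8.29. The 4 endothelial markers summed to 8.93 to 12.8 CPM there.

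Promoter sequences of 3 members are shown here because these genes gave the largest rise, the largest fall well above the floor and the highest level in both control groups. Each is the stretch of 250 bases before the RefSeq start on GRCh38.p14, written 5′ to 3′ along the gene. Capitals mark the letters ACGTG or GCGTG on either strand, the 2 forms of the core to which HIF can bind.
AQP10 (chr1:154320843-154321092, plus strand): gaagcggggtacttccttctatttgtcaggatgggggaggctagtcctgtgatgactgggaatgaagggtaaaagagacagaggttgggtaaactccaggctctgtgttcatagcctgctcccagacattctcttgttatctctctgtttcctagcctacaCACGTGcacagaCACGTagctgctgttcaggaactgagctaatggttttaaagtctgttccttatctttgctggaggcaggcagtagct
AQP5 (chr12:49961622-49961871, plus strand): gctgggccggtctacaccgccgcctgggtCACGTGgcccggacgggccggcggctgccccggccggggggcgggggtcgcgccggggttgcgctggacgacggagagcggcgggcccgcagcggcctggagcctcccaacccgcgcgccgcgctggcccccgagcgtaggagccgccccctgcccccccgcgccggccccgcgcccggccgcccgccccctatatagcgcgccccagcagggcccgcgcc
AQP3 (chr9:33447594-33447843, minus strand): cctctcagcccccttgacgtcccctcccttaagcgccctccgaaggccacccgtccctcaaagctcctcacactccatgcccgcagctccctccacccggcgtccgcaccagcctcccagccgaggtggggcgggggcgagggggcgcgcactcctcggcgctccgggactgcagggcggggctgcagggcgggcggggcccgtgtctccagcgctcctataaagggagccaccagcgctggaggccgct
The AQP10 stretch held ACGTG 3 times. On the gene's strand it began 88 bases before the start, and on the other strand its leftmost bases lay 89 and 77 bases before the start. The first pair overlapped as the palindrome CACGTG, which is also the E-box read by many basic helix-loop-helix factors. In the AQP5 stretch the same palindrome began 221 bases before the start, and in AQP3 neither core was present. Such letters are common: of 35116 human promoter windows of this length, 18.5% held ACGTG, 32.2% held GCGTG and 6.34% held CACGTG on either strand. At least 1 of the 2 cores was present in 43.2%. AQP1 and AQP7 had no match and AQP8 had 1 GCGTG, 186 bases before the start. AQP10 had a GC content of 48.8%, against 84.4% for AQP5 and 73.6% for AQP3. These matches describe letters only, and no binding was measured.

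AQP10, the intestinal aquaglyceroporin, was the most strongly responding member in dCaco-2. Its gene lies at chr1:154321090-154325325 on the plus strand (GRCh38) and its canonical transcript has 6 exons. The dCaco-2 controls held 60, 88 and 28 counts of AQP10. With CoCl2 there were 693, 793 and 1006 counts, and with OD 1035, 1114 and 1064. In CPM these were 3.49, 5.90 and 1.94 in controls, 57.7, 57.6 and 54.4 with CoCl2, and 69.6, 66.9 and 75.1 with OD. Neither treated group overlapped the controls, and every OD library lay above every CoCl2 library. The mean level was 3.78 ± 2.00 CPM in controls (SD, n = 3), 56.6 ± 1.89 with CoCl2 and 70.5 ± 4.16 with OD. AQP10 rose with CoCl2 by a log2 fold change of 3.90 (SE 0.17), which is 14.9-fold, with an edgeR FDR of 9.51e-16. The log2 fold change with OD was 4.22 (SE 0.17), 18.6-fold. Both use the control libraries of the comparison that chose AQP10, so the FDR with CoCl2 is not independent of that choice. The low control level sets much of the size of both fold changes. Leaving out 1 library at a time moved the CoCl2 value between 3.61 and 4.35. The 7 enterocyte markers summed to 990 to 1088 CPM with CoCl2 and 1391 to 1473 with OD, a sum made up largely of DPP4. Single markers differed from one another. APOA4, an intestinal apolipoprotein, had a higher mean with both agents, as AQP10 did, at 13.1 ± 3.01 CPM in controls (SD, n = 3), 61.2 ± 13.9 with CoCl2 and 32.4 ± 5.47 with OD. SI, sucrase-isomaltase, was at 289 ± 38.1, 115 ± 18.8 and 232 ± 35.1 CPM in the same order. Like SI, the markers ALPI, FABP2 and ANPEP had lower means with both agents than in controls. LCT had a lower mean with CoCl2 only, and DPP4 had a higher mean with both. The part of these markers in the AQP10 values was not tested. In bulk RNA a change in the number of expressing cells cannot be told apart from a change per cell.

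In HT-29, AQP10 was at 0 counts in all 9 libraries. Against a floor of 3 counts per library, AQP10 was at least 22.7-fold higher in dCaco-2 controls than in HT-29 controls. The same bound was 253-fold with CoCl2 and 411-fold with OD. Neither agent brought AQP10 to a detectable level in HT-29 at this depth.

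**Figure D1:**
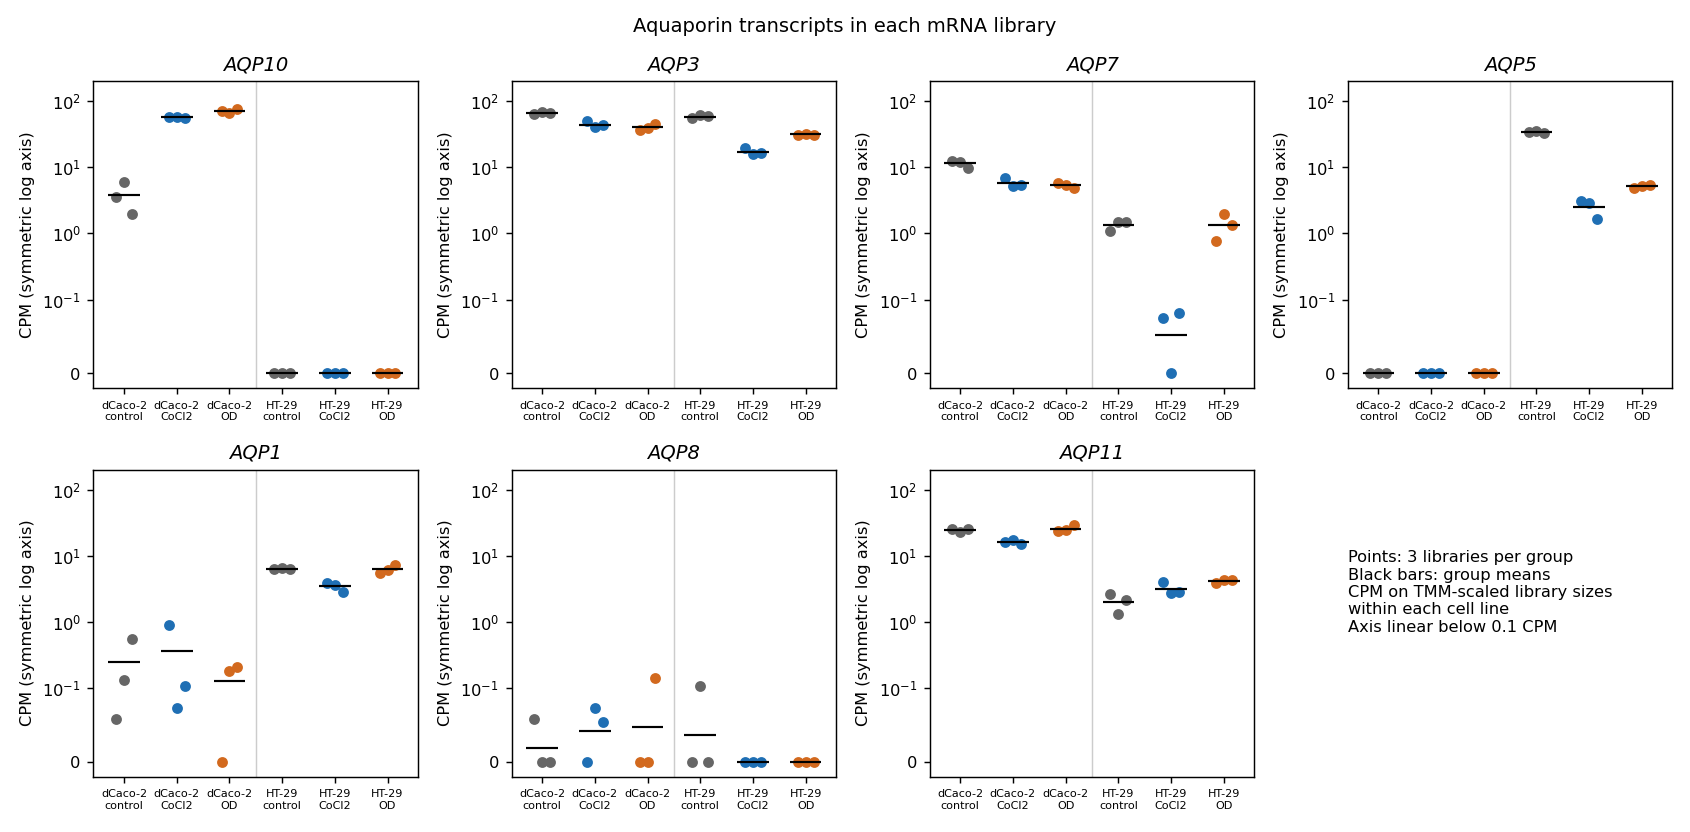
CPM of the 7 aquaporins in each of 18 libraries (points) with group means (bars), on a symmetric log axis that is linear below 0.1 CPM, for dCaco-2 on the left and HT-29 on the right of each panel. AQP10 is at 0 in every HT-29 library, AQP5 is at 0 in every dCaco-2 library, and AQP8 is at 0.141 CPM or less in every library.

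The gene that follows AQP10 on the same strand, ATP8B2, begins 199 bases after its end. ATP8B2 encodes a phospholipid-flipping ATPase. In dCaco-2 its level was 6.35, 10.5 and 7.27 CPM in controls, 81.8, 88.9 and 76.0 with CoCl2, and 52.3, 45.8 and 51.3 with OD. It therefore rose with AQP10, by log2 fold changes of 3.36 with CoCl2 (FDR 5.92e-17) and 2.64 with OD. The OD value is a description, since it lies in the comparison that chose AQP10. The order of the agents was the other way round, with CoCl2 above OD in every library. In HT-29, where AQP10 was at 0, ATP8B2 was still present at 14 to 109 counts per library. There it fell with CoCl2 by 1.60 on the log2 scale (FDR 9.88e-08). The genes lie so close that reads running past the end of one could be counted for the other, and this was not tested.

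**Figure D2:**
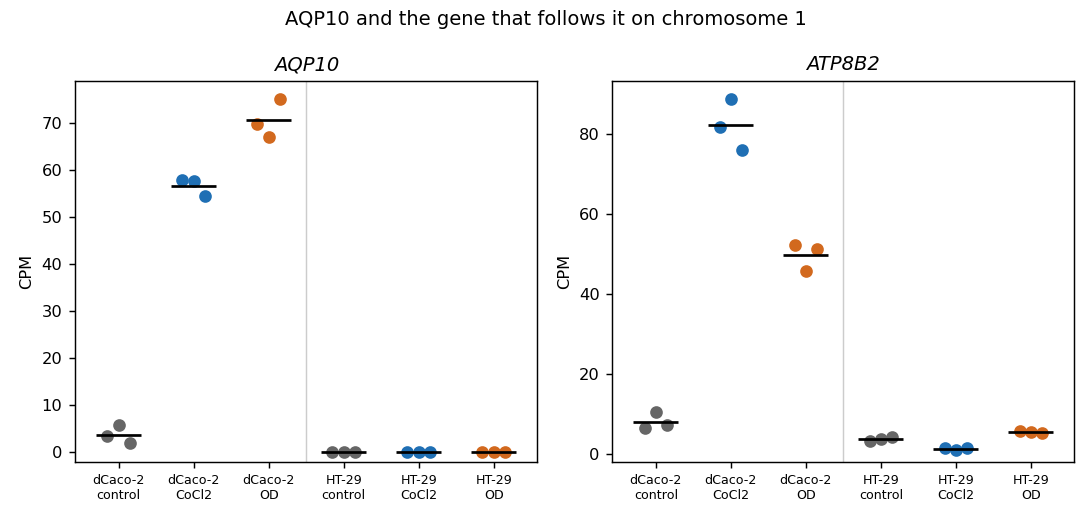
CPM of AQP10 and of ATP8B2 in 18 libraries (points) with group means (bars). In dCaco-2 both genes are low in the 3 controls and high in all 6 treated libraries, while in HT-29 AQP10 is at 0 and ATP8B2 stays between 0.968 and 5.64 CPM.

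AQP3, the basolateral aquaglyceroporin of colon epithelium, was the one member with substantial expression in both lines. It lies at chr9:33441156-33447596 on the minus strand. In dCaco-2 its level was 63.6, 68.7 and 65.8 CPM in controls, 49.1, 40.1 and 42.6 with CoCl2, and 36.9, 38.4 and 45.4 with OD. The treated groups lay below the controls without overlap and overlapped each other. The CoCl2 log2 fold change was -0.59 (SE 0.093, FDR 5.98e-06), 0.664 of the control level and short of the fold limit for a call. With OD it was -0.72 (SE 0.093). CoCl2 minus OD gave 0.13, with a 95% interval from -0.062 to 0.31 and an FDR of 0.286.

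In HT-29, AQP3 stood at 55.0, 60.6 and 58.5 CPM in controls, 19.2, 16.0 and 16.5 with CoCl2, and 31.1, 31.5 and 30.9 with OD. The 3 groups were fully separated. AQP3 fell by 1.76 on the log2 scale with CoCl2 (SE 0.070, FDR 1.80e-18), to 0.296 of the control level. With OD the log2 fold change was -0.90 (SE 0.061, FDR 5.98e-13), which passed the FDR but not the fold limit. CoCl2 minus OD was -0.86 (SE 0.075, FDR 5.93e-11), also short of that limit. The 2 agents were given at different doses. Between the control groups of the lines AQP3 did not pass the test (HT-29 minus dCaco-2 -0.095, interval -0.25 to 0.059, FDR 0.269).

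The CoCl2 response of AQP3 differed between the lines. The interaction, HT-29 response minus dCaco-2 response, was -1.27 on the log2 scale (SE 0.12, FDR 1.17e-10). For OD the same difference was -0.20 (SE 0.12). Ordered by level, dCaco-2 and HT-29 controls overlapped at the top, and the HT-29 CoCl2 group was lowest, below all others.

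AQP7, the glycerol channel of fat cells, lies 38473 bases from AQP3 on the same strand of chromosome 9, with no annotated gene wholly between them. ENSG00000286322, a long noncoding RNA gene on the opposite strand, overlaps AQP7 and reaches to 30602 bases from AQP3. The position of AQP7 is chr9:33383179-33402682. In dCaco-2 it had 216, 180 and 138 counts in controls, 82, 71 and 99 with CoCl2, and 85, 90 and 69 with OD. The level was 11.4 ± 1.62 CPM in controls (SD, n = 3), 5.78 ± 0.915 with CoCl2 and 5.33 ± 0.429 with OD. All 6 treated libraries lay below all controls. The CoCl2 log2 fold change was -0.99 (SE 0.16, FDR 7.84e-06), just inside the fold limit and so not called. Without control replicate 3 or CoCl2 replicate 1, or with scaling by total counts, it passed that limit. The OD value was -1.10 (SE 0.16). CoCl2 minus OD was 0.10, with an interval from -0.24 to 0.44 and an FDR of 0.642.

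In HT-29, AQP7 was near the limit of detection, with 17, 27 and 39 counts in controls and 15, 34 and 25 with OD. With CoCl2 there were 1, 0 and 1 counts. AQP7 entered the fit through the control and OD groups, so a difference for CoCl2 was built into its passing. Summed counts per library size were 27.5-fold lower with CoCl2 than in controls, with an exact 95% interval from 7.37 to 230.7 that covers counting error only. The edgeR log2 fold change of -4.59 depends on the prior count and is no bound, and no test is read from it. With OD the log2 fold change was -0.027 (SE 0.28, interval -0.58 to 0.52, FDR 0.938). AQP7 was lower in HT-29 controls than in dCaco-2 controls with a log2 fold change of -2.96 (SE 0.20, FDR 3.02e-15). The fitted difference in CoCl2 response between the lines was -3.68 (SE 0.72), a description for the same reason, and that for OD was 1.05 (SE 0.33). AQP7 has close copies in the genome. The 5 pseudogenes in the table held at most 7 counts in any library, and the copy AQP7B was not in the table.

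AQP5, a water channel best known from salivary, sweat and airway glands, was the member that fell most in HT-29 among those well above the floor. It lies at chr12:49961872-49965682 on the plus strand. Its counts were 529, 633 and 867 in controls, 41, 42 and 20 with CoCl2, and 94, 89 and 102 with OD. In CPM the controls were at 34.1, 34.6 and 32.6, the CoCl2 libraries at 3.06, 2.90 and 1.65, and the OD libraries at 4.86, 5.18 and 5.43. No 2 groups overlapped. AQP5 fell by 3.71 on the log2 scale with CoCl2 (SE 0.12, FDR 3.14e-20), to 0.0765 of control. With OD it fell by 2.71 (SE 0.099, FDR 1.84e-18), to 0.153 of control. CoCl2 minus OD was -1.001 (SE 0.17, FDR 5.72e-06). That value sat at the fold limit, and the call was lost under DESeq2 and with several other settings. The summed CPM of 4 goblet cell markers lay at 49.2 to 55.7 in the HT-29 controls. It lay at 21.6 to 28.0 under CoCl2 and at 23.5 to 27.6 under OD, so it too was lower with both agents. In dCaco-2, where AQP5 was at 0 counts, the same sum was 37.1 to 46.9, 22.5 to 24.5 and 27.3 to 30.4 CPM in that order. The makeup of the sum differed between the lines. In dCaco-2 controls TFF3 was at 40.7 CPM, FCGBP at 1.08, MUC2 at 0.381 and SPINK4 at 0.0447. In HT-29 controls they were at 10.6, 18.1, 22.5 and 1.85 CPM in that order. The part of these markers in the AQP5 result was not tested.

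In dCaco-2, AQP5 was at 0 counts in all 9 libraries. The level in HT-29 controls was at least 185-fold higher than a floor of 3 counts in the dCaco-2 controls. With CoCl2 the bound was 11.9-fold, and with OD 27.4-fold.

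AQP1, the water channel of red cells and capillary endothelium, was at a low level in HT-29 and near 0 in dCaco-2. It lies at chr7:30911853-30925517 on the plus strand, inside an annotated readthrough gene. HT-29 controls held 6.26, 6.62 and 6.27 CPM, CoCl2 libraries 3.96, 3.60 and 2.88, and OD libraries 5.43, 6.05 and 7.24. CoCl2 lay below both other groups, and OD overlapped the controls. The CoCl2 log2 fold change was -0.87 (SE 0.15, FDR 1.12e-05), short of the fold limit. Scaling by total counts moved it to -1.498, which is a call. With OD it was -0.032 (SE 0.13, interval -0.28 to 0.22, FDR 0.841). The 4 endothelial markers summed to 1.39 to 2.32 CPM in HT-29 controls, 0.299 to 0.576 under CoCl2 and 1.05 to 1.24 under OD. Of these markers, 2 were at 0 in every library of each HT-29 group. In dCaco-2 controls, where AQP1 was near 0, the same 4 markers summed to 8.93 to 12.8 CPM. Their part was not tested. In dCaco-2, AQP1 had 0 to 11 counts per library and did not pass the filter on low counts. With both lines scaled together its control levels were 6.67 ± 0.217 CPM in HT-29 and 0.245 ± 0.263 in dCaco-2. AQP1 entered that fit through HT-29, so the difference was built in, and a fold against so few dCaco-2 counts is not given.

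AQP8, the water channel of colonic surface cells, had at most 2 counts in any of the 18 libraries and was tested in no fit. At this depth no level could be read for it in either line. The position of its gene is chr16:25215731-25228932.

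AQP11, the intracellular member, differed between the lines in its response to CoCl2. It lies at chr11:77589391-77610356 on the plus strand and overlaps CLNS1A, a chloride current inducer, on the opposite strand. In dCaco-2, AQP11 was at 25.2, 23.1 and 25.7 CPM in controls, 16.4, 17.4 and 15.4 with CoCl2, and 23.5, 24.9 and 28.8 with OD. The CoCl2 group lay below both others, while OD overlapped the controls. The log2 fold change was -0.59 with CoCl2 (SE 0.11, FDR 5.09e-05), and 0.059 with OD (SE 0.11). CoCl2 minus OD was -0.65 (SE 0.11, FDR 2.71e-05), under the fold limit.

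In HT-29, AQP11 was at 2.65, 1.31 and 2.14 CPM in controls, 4.03, 2.77 and 2.80 with CoCl2, and 3.93, 4.31 and 4.36 with OD. Both treated groups lay above the controls, and they overlapped each other. AQP11 rose with OD by 1.05 on the log2 scale (SE 0.19, FDR 2.96e-05), 2.07-fold. It was no longer a call without control replicate 2, the library with 24 counts (0.84), with scaling by total counts (0.92) or under limma with a pseudocount of 1 (0.61). With CoCl2 it was 0.66 (SE 0.22, FDR 0.00711), short of the fold limit, and near 0 (0.031) with scaling by total counts. Without control replicate 2 or CoCl2 replicate 1 it was 0.45 or 0.46, with an FDR of 0.053 or 0.0888. The interaction for CoCl2 was 1.15 (SE 0.24, FDR 0.000137), and it was under the fold limit with scaling by total counts (0.945) and without HT-29 control replicate 2 (0.934) or CoCl2 replicate 1 (0.945). For OD it was 0.98 (SE 0.22). AQP11 was lower in HT-29 controls than in dCaco-2 controls, with a log2 fold change of -3.51 (SE 0.15, FDR 5.89e-21). CLNS1A held 2030 to 8129 counts per library, and its log2 fold changes were 0.52 and -0.12 with CoCl2 and OD in dCaco-2 and -0.0021 and -0.36 in HT-29. In dCaco-2 with CoCl2 its sign was opposite to that of AQP11. Whether the counting used strand was not stated.

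**Figure D3:**
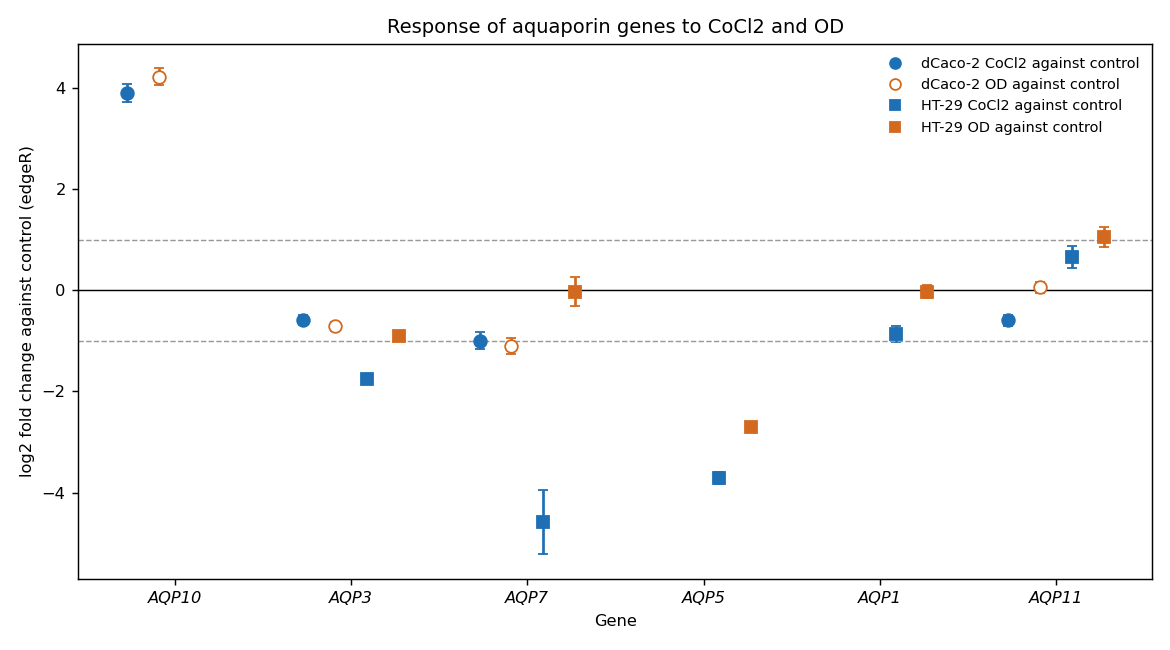
log2 fold changes against control (points) with 1 SE (bars) for the members tested in each line, CoCl2 in blue and OD in orange, circles for dCaco-2 and squares for HT-29. Open circles mark the comparison that chose the genes, and dashed lines mark the fold limit at 1 and -1. The AQP10 points are the only ones above 3, and AQP5 with both agents and AQP7 with CoCl2, all in HT-29, are the only ones below -2.

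Of the 7 members, 4 passed the filter on low counts in dCaco-2 (AQP3, AQP7, AQP10, AQP11) and 5 in HT-29 (AQP1, AQP3, AQP5, AQP7, AQP11). With CoCl2 in dCaco-2, 1 of the 4 was called, against 23.4% of all genes tested. The called member is AQP10, which shares its control libraries with the comparison that chose it, so nothing is read from this count. With OD in dCaco-2, 2 of the 4 were past both limits, against 11.7%, a count that the choice of AQP10 shaped and from which nothing is read. With CoCl2 in HT-29, 3 of 5 were past both limits, all lower, against 41.3% of all genes in either direction and 23.9% lower. AQP7 is among them and had to differ, which leaves 2 of 4 (AQP3, AQP5). With OD in HT-29, 2 of 5 were called, 1 in each direction, against 17.1%. Between CoCl2 and OD in dCaco-2, AQP10 is given no test, and 0 of the other 3 were called by edgeR, against 11.7%. In HT-29, 2 of 5 were called with AQP7 included, against 29.9%. Of the 3 members tested there in dCaco-2, 1 had an unadjusted p under 0.05 (AQP11) and 0 were called by DESeq2. Between the control groups of the lines, AQP7 and AQP11 were called and AQP3 was not, against 45.8%. AQP1, AQP5 and AQP10 had passed the filter through 1 line and are not counted. The difference in CoCl2 response was past both limits in 3 of 3 with AQP7 included, against 21.6%, and that in OD response, which holds the comparison that chose AQP10, in 1 of 3, against 15.2%. With so many genes called and so few members, these counts say little about aquaporins as a family.

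Groups that did not overlap were common among all genes too. With CoCl2, the treated and control libraries were separated for 4 of 4 members in dCaco-2, with the chosen AQP10 included, against 69.0% of all genes. In HT-29 they were separated for 5 of 5 with AQP7 included, against 83.2%. With OD they were separated for 3 of 4 in dCaco-2, a count that the choice of AQP10 shaped, against 59.4%. In HT-29 the count was 3 of 5, against 71.1%. CoCl2 and OD libraries were separated for 2 of 4 in dCaco-2, with the chosen AQP10 included, against 52.8%. In HT-29 the count was 4 of 5 with AQP7 included, against 78.9%. By FDR alone, with no fold limit, CoCl2 passed for 4 of 4 in dCaco-2, with the chosen AQP10 included, against 64.7%. In HT-29 it passed for 5 of 5, against 82.8%, with AQP7 included, which had to differ. CoCl2 against OD passed for 1 of the 3 with a test in dCaco-2, against 49.6%. In HT-29 it passed for 4 of 5, again with AQP7 included, against 77.7%. The line difference in OD response passed for 2 of 3, against 42.9%, and nothing is read from it.

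Levels of different members can be set side by side only per length, for which the deposited table of log2 RPKM (counts scaled to library size and exon length) was turned back to RPKM. In dCaco-2 controls, AQP3 supplied 59.5% of the summed RPKM of the 4 listed members, AQP11 30.5%, AQP7 5.69% and AQP10 4.29%. With CoCl2, AQP10 supplied 50.8% ± 1.49 (SD, n = 3), and with OD 53.4% ± 1.49, while AQP3 came to 31.0% and 23.9%. The sum itself was 38.9 ± 1.12 RPKM in controls, 48.3 ± 2.41 with CoCl2 and 57.5 ± 4.50 with OD. In treated dCaco-2 the sum of these 4 members was thus in larger part AQP10 than AQP3, the reverse of the controls. AQP10 was chosen for its rise with OD, so nothing is read from its share there.

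In HT-29 the makeup was different. AQP3 and AQP5 supplied 49.0% and 44.1% of the sum in controls. With CoCl2 these were 60.7% and 13.6%, and with OD 62.2% and 15.9%. The sum was 41.9 ± 1.00 RPKM in controls, 9.46 ± 1.29 with CoCl2 and 17.5 ± 0.507 with OD. AQP7 in HT-29 and AQP1 in dCaco-2 had been filtered out of this table and do not enter these sums. The table was normalised within each line, so its sums are not compared between lines.

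**Figure D4:**
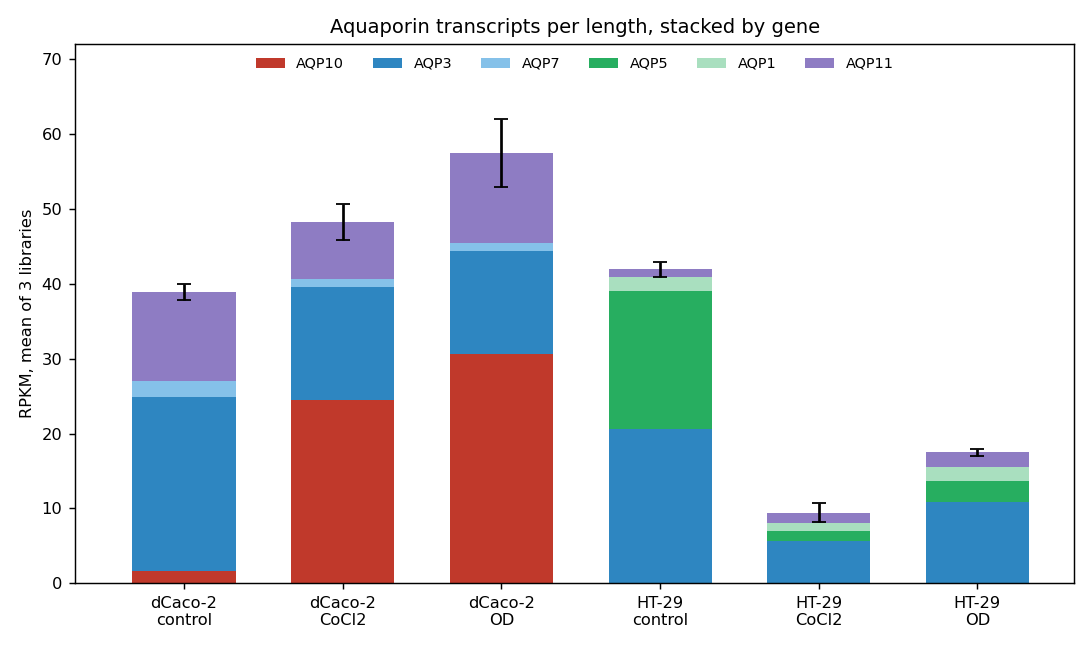
Mean RPKM of the aquaporins listed for each line, stacked by gene, with the SD of the sum over 3 libraries as a bar. In dCaco-2 the sum goes from 38.9 in controls to 57.5 with OD as the AQP10 segment grows, and in HT-29 it goes from 41.9 in controls to 9.46 with CoCl2.

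The other aquaporin genes were at or near 0 apart from a few. AQP2, the vasopressin-regulated water channel of the kidney collecting duct, and AQP6, a kidney anion-conducting member, flank AQP5 on chromosome 12, 2993 bases before it and 1511 bases after it. In HT-29, AQP2 had 35, 44 and 44 counts in controls, 0, 1 and 1 with CoCl2, and 3, 9 and 9 with OD. AQP6 had 18, 22 and 19 in controls, 1, 1 and 0 with CoCl2, and 4, 6 and 0 with OD. Both entered the fit through their controls, so here too a difference was built in. As a share of the control mean, AQP2, AQP5 and AQP6 stood at 2.40%, 7.51% and 4.67% with CoCl2, and at 18.3%, 15.3% and 18.1% with OD. All treated libraries lay below all controls for each of the 3 genes. The edgeR log2 fold changes with OD, given without a test for that reason, were -2.41 for AQP2 (SE 0.33) and -2.40 for AQP6 (SE 0.49). Summed counts with CoCl2 were lower than in controls by 40.7-fold for AQP2 (exact 95% interval 11.0 to 340.0) and 19.5-fold for AQP6 (5.17 to 165.0).

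Among the other aquaporin genes with a promoter stretch, MIP, AQP4 and AQP9 had no match, and AQP12A and AQP12B held GCGTG only. The promoter stretch of AQP2 was picked for print, beside that of AQP5, because it holds the palindrome CACGTG, here 59 bases before the start.
AQP2 (chr12:49950487-49950736, plus strand): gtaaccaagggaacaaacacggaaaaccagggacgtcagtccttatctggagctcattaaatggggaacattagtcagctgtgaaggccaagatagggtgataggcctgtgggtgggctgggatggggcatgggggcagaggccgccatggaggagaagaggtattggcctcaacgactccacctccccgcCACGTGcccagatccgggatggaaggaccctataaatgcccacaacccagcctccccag
RACGAP1, a cytokinesis gene that overlaps AQP6 on the opposite strand, was also lower in HT-29 at 45.8% of control with CoCl2 and 66.6% with OD. It held 708 to 3286 counts per library there, so a small share of its reads could supply the counts of AQP6, and this was not tested. An antisense gene, AQP5-AS1, overlaps AQP5 and AQP2 and was not in the table.

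**Figure D5:**
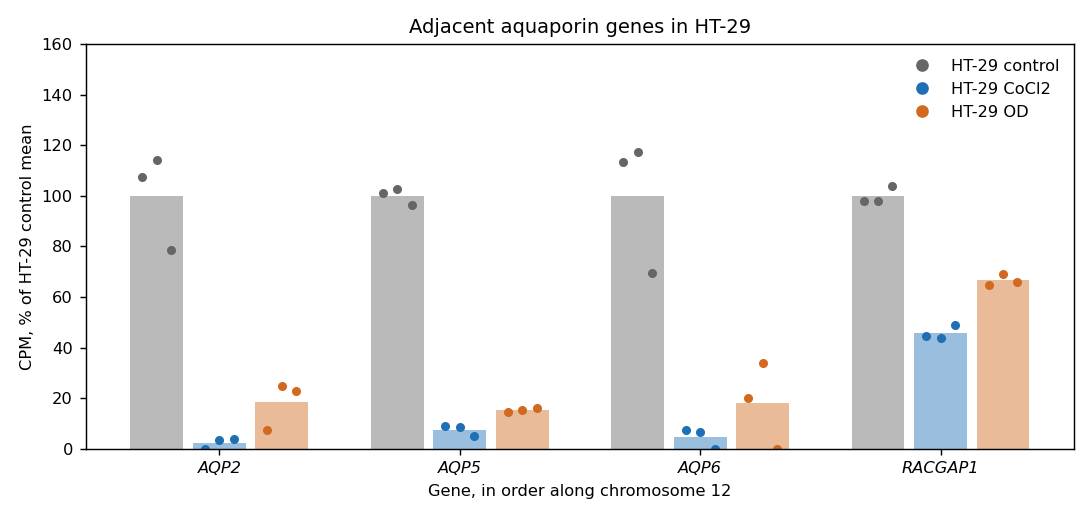
CPM of AQP2, AQP5, AQP6 and the overlapping gene RACGAP1 in HT-29, as a percentage of the control mean, with a point per library and a bar at the group mean (n = 3). AQP2, AQP5 and AQP6 are at 18.3% or less with either agent, and RACGAP1 is at 45.8% with CoCl2 and 66.6% with OD.

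In dCaco-2, AQP4, the water channel of brain astrocytes, had 29, 26 and 21 counts in controls, 17, 19 and 10 with CoCl2, and 11, 23 and 5 with OD. Its CoCl2 log2 fold change of -0.61 did not pass the test (SE 0.41, FDR 0.195). AQP12B, expressed in the pancreas, had 3, 3 and 0 counts in controls, 1, 2 and 0 with CoCl2, and 20, 9 and 14 with OD. Its near-identical neighbour AQP12A had 0, 1 and 0, then 3, 1 and 2, then 6, 9 and 2. Neither passed the filter, so no test was made, and reads could be split between the pair. Both were at 0 in every HT-29 library.

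Glycerol carried by AQP3, AQP7 and AQP10 is made and used by a set of enzymes, of which 29 genes were listed. In dCaco-2, 27 were tested. With CoCl2, 3 were higher, 6 lower and 18 not called, against 23.4% of all genes called in either direction, with a median of -0.21 on the log2 scale against -0.029 for all genes. The 3 with the largest change were GPD1, which makes glycerol 3-phosphate (-2.51, SE 0.17, FDR 4.86e-12), MOGAT2, an acyltransferase of fat absorption (-2.15, SE 0.28, FDR 3.08e-07), and GPAM, which starts glycerolipid synthesis in mitochondria (-1.97, SE 0.087, FDR 1.14e-15). With OD, 3 were higher and 3 lower of 27, against 11.7%, and the same 3 genes led, at -1.30, -1.70 and -1.64 in that order. Between the agents, GPCPD1, which cleaves glycerophosphocholine, was higher with CoCl2 by 2.16 (SE 0.12, FDR 3.13e-13), and GPD1 was lower by 1.21 (a log2 fold change of -1.21, SE 0.18, FDR 7.35e-06).

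In HT-29, 25 of these genes were tested. With CoCl2, 7 were higher and 8 lower, against 41.3% of all genes, with a median of 0.062. LPIN1, a phosphatidate phosphatase, rose by 3.83 on the log2 scale (SE 0.073, FDR 2.07e-25), and GPAT3, an acyltransferase, by 3.25 (SE 0.073, FDR 8.22e-24). DGAT2, which completes triglycerides, fell by 2.54 (SE 0.13, FDR 4.42e-16). With OD, 5 were higher and 0 lower by edgeR, against 17.1%, with a median of 0.36 beside 0.0057 for all genes. They were led by LPIN1 (2.24, SE 0.074, FDR 1.88e-19), GK, which is glycerol kinase (2.24, SE 0.11, FDR 9.79e-16), and GPAT3 (1.39, SE 0.078, FDR 1.43e-14). GK went from 3.72 ± 0.260 CPM in controls to 17.7 ± 1.54 with OD (SD, n = 3). CoCl2 minus OD was -3.52 for GPD1 (SE 0.13, FDR 3.51e-19), -2.92 for MOGAT3, an acyltransferase (SE 0.095, FDR 5.08e-20), and -2.60 for DGAT2 (SE 0.13, FDR 4.84e-16).

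Of 25 genes for cell volume and osmotic balance, 23 were tested in each line. In dCaco-2, CoCl2 gave 2 higher and 2 lower, against 23.4% of all genes, and OD 2 higher and 0 lower by edgeR, against 11.7%. SLC12A2, the sodium-potassium-chloride cotransporter that drives fluid secretion, fell with CoCl2 by 2.00 (SE 0.11, FDR 1.55e-13), from 72.5 ± 5.68 to 18.2 ± 2.43 CPM. SLC6A12, the betaine transporter, was near the floor, at 0.282 CPM with CoCl2 and 1.06 in controls, and no test is read from it. TSC22D2, an osmotic stress response gene, rose by 1.76 with CoCl2 (SE 0.080, FDR 2.34e-15) and 1.55 with OD (SE 0.080). OXSR1, a kinase of chloride cotransport, rose with OD by 1.13 (SE 0.076). In HT-29, CoCl2 gave 6 higher and 4 lower, against 41.3%, and OD 3 higher and 2 lower, against 17.1%. There SLC6A6, the taurine transporter, rose by 2.82 with CoCl2 (SE 0.059, FDR 1.61e-24) and 1.67 with OD (SE 0.058, FDR 6.86e-19). AKR1B1, aldose reductase, was at 0.120 CPM in controls, close to the floor, 4.15 with CoCl2 and 1.66 with OD. It entered the fit through the treated groups, so no test is read from it. WNK4, a kinase that controls chloride cotransport, fell with CoCl2 by 2.94 (SE 0.093, FDR 1.15e-20). SLC12A2 fell with OD by 1.52 in HT-29 (SE 0.046, FDR 4.44e-20), from 857 ± 22.8 to 299.8 ± 16.1 CPM. CoCl2 minus OD was -1.09 for SLC12A2 in dCaco-2 (SE 0.12, FDR 3.29e-08). In HT-29 it was 1.60 for SLC5A3, the inositol transporter (SE 0.048, FDR 9.17e-21), -1.45 for WNK4 (SE 0.11, FDR 2.40e-12) and -1.44 for LRRC8D, a subunit of the volume-regulated anion channel (SE 0.064, FDR 4.15e-17). The medians of this list lay between -0.050 and 0.26 on the log2 scale in the 4 comparisons with control.

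The genes whose log2 CPM followed each member most closely were ranked by Pearson's r over the 18 libraries, which share 6 group levels, so r mostly reflects differences between groups. For AQP10 they included ITGA5 (r = 0.994), LOX (0.992), ALDH18A1 (0.989) and AL355987.4 (0.988). ITGA5 is an integrin subunit for fibronectin. With both lines scaled together, its mean was 4.41 CPM in dCaco-2 controls, 79.6 with CoCl2 and 63.7 with OD. It was at most 0.149 CPM in an HT-29 group. Like AQP10, ALDH18A1 and AL355987.4 had a higher mean under OD than under CoCl2 in dCaco-2, which was not so for ITGA5 and LOX. For AQP5 the closest genes were PTPRO (0.993), LINC02700 (0.992) and OR51E1 (0.992), all present in HT-29 and at or near 0 in dCaco-2. For AQP3 they were LY75 (0.983), ODC1-DT (0.974) and DIXDC1 (0.971), and for AQP7 TGIF2, DNMT3A and SIDT2 (0.986, 0.985 and 0.984). For AQP11 they were TTC7A (0.994), PALM3 and ADORA2A-AS1, and for AQP1 STUB1 (0.986), BGN and GNB1L. No p is given for these, and nothing is read from them about shared control.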

How the data were processed

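The 18 mRNA libraries of 6 groups were used, and the 18 miRNA libraries were not. Per the labels and the study's methods, the authors used a stranded mRNA kit, trimmed single-end reads with cutadapt 2.10, aligned them with STAR 2.7.5b to GRCh38.p13 and counted genes on a GENCODE annotation. The counting tool and its use of strand are not given in the sources used here. Raw gene counts deposited by the authors were tested. They also deposited log2 values of RPKM plus 1, normalised within each line, which gave levels per length. In the deposited log2 table a gene filtered out in a line stands at 0. The study's methods call the Caco-2 replicates biological; for HT-29 nothing says so, and p-values there may measure technical spread.

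Each line was fitted alone over its 9 libraries with edgeR 4.0.16 in R 4.3.3 (TMM scaling, filterByExpr with a minimum count of 10, two-sided quasi-likelihood F test, Benjamini-Hochberg adjustment over all genes). Comparisons between lines used 1 fit of all 18. The SE is the log2 fold change divided by the square root of F. The test was checked on simulated counts. Alternatives were DESeq2 1.42.0, limma 3.58.1 on the deposited log2 values, other scalings and filters, a replicate block and leaving out each library. No p is given for members in OD against control in dCaco-2, in the line difference that holds it, or for AQP10 in CoCl2 against OD. AQP10 with CoCl2 is tested but shares control libraries with the comparison that chose it. Line differences are given only for AQP3, AQP7 and AQP11, since the others were at or near 0 in every group of a line. Genes that passed the filter only through the group where they are high are described with no test.

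The members, the other lists and the rule for naming genes were chosen with earlier results of these data known. The text names the members, the other aquaporins, the 3 called genes of each list with the largest change in each comparison within a line, overlapping and neighbouring genes, and the 5 genes (AQP10) or 3 genes (others) with the highest r among those with a mean of at least 50 counts, apart from an item that is not reported here. Markers and ATP8B2, CLNS1A and RACGAP1 were named for their position or role. Promoters are from RefSeq on GRCh38.p14, with an entry for 6 of the 7 members and none used for AQP11. Gene positions are from GENCODE v44 on GRCh38.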

Additional observations from a re-analysis of the deposited data

Results flagged for a closer look

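The response to CoCl2 differed between HT-29 and dCaco-2 for AQP3 and AQP11 by a test of the difference itself, in edgeR over all 18 libraries. The difference was -1.27 on the log2 scale for AQP3 (SE 0.12, FDR 1.17e-10), which was lower with CoCl2 in 3 of 3 libraries of each line and by more in HT-29. It was 1.15 for AQP11 (SE 0.24, FDR 0.000137), which was lower with CoCl2 in dCaco-2. In HT-29 its CoCl2 libraries lay above the controls, but that response was 0.031 with scaling by total counts, and the difference between the lines was then 0.945, under the fold limit. For AQP7 the fitted difference of -3.68 (SE 0.72) is a description: HT-29 had 2 counts in all with CoCl2, and AQP7 passed the filter there through the other groups. Cell line and culture state cannot be told apart here, and causes were not tested.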

How the results depend on the processing

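Member values were recomputed 579 times. Outside the comparisons shaped by the choice of AQP10, 12 lost a call and 16 gained one. A further 8 values moved in those comparisons, some by losing a call, and are in neither count. The values that changed sign all lay near 0. With OD in HT-29, leaving out 1 library moved AQP7 between -0.379 and 0.255 (above 0 without control replicate 2 or 3 or OD replicate 1) and AQP1 between -0.154 and 0.0555 (above 0 without OD replicate 1). For CoCl2 against OD in dCaco-2, library size alone gave -0.0624 for AQP7 and -0.0443 for AQP3, and leaving out 1 library moved AQP7 between -0.0193 and 0.172 (below 0 without CoCl2 replicate 1). With OD in dCaco-2, AQP11 was -0.0929 with library size alone and -0.0284 without OD replicate 3. The number of members called with CoCl2 in dCaco-2 went from 1 to 2 with library size alone, ranged from 1 to 2 when 1 library was left out (2 without control replicate 3 or CoCl2 replicate 1, through AQP7), and was 4 with no fold limit. With OD in dCaco-2 it went from 2 to 1 under limma with a pseudocount of 1. With CoCl2 in HT-29 it went from 3 to 5 with no fold limit and 4 with library size alone, AQP7 included. It was 2 under limma with either pseudocount. With OD in HT-29 it went from 2 to 1 under limma with that pseudocount and to 3 with no fold limit, and ranged from 1 to 2 over the left-out libraries (1 without control replicate 2). For CoCl2 against OD, dCaco-2 went from 0 to 2 with no fold limit, with AQP10 included. In HT-29 that count of 2, which includes AQP7, became 1 with RLE factors and 1 with DESeq2. Under limma with pseudocounts of 1 and 0.1 it was 0 and 1. It became 4 with library size alone and 4 with no fold limit. Over the left-out libraries it ranged from 1 to 2 (1 without CoCl2 replicate 3, OD replicate 2 or OD replicate 3). The line difference in OD response went from 1 to 2 with library size alone and with no fold limit, and ranged from 0 to 2 over the left-out libraries (0 without dCaco-2 control replicate 1 or HT-29 OD replicate 2). The line difference in CoCl2 response went from 3 to 2 with library size alone and ranged from 2 to 3 over the left-out libraries (2 without HT-29 control replicate 2 or CoCl2 replicate 1), through AQP11. Alternatives that moved these counts at the fold limit did so by construction where the limit was dropped; otherwise the cause was not tested.

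Over all genes, limma with pseudocounts of 1 and 0.1 called 1098 and 2116 genes for CoCl2 in dCaco-2 (edgeR 3747), 381 and 878 for OD (1876), 2520 and 3893 for CoCl2 in HT-29 (6524), 744 and 1295 for OD (2699), 341 and 848 for CoCl2 against OD in dCaco-2 (1868), and 1455 and 2599 in HT-29 (4734). With no fold limit edgeR gave 10370, 8084, 13097, 10876, 7957 and 12286 genes in that order, 14175 for the control groups of the lines (8202), 8916 for the line difference in CoCl2 response (3875) and 7682 in OD response (2724). Same-numbered libraries did not deviate together (correlations from -0.055 to 0.068 in dCaco-2 and -0.037 to 0.025 in HT-29), so replicate numbers were not taken as pairs. The replicate block left the member counts at 1, 2, 3, 2, 0 and 2 in the 6 comparisons within a line, and changed no member's call. Depth limits AQP7, AQP2 and AQP6 in HT-29, AQP1 in dCaco-2 and AQP8 in both lines.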
